A study of Mus musculus with 2 samples.

Results

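Disallowed genes are genes that most tissues express and that mature beta cells keep silent. The genes examined here were 10 such genes, Ldha, Slc16a1, Hk1, Pdgfra, Oat, Cxcl12, Igfbp4, Acot7, Zfp36l1 and Rest. They were taken as a given list, and every probe whose accession carries one of these symbols in the NCBI mouse annotation was included. This gave 15 of the 39417 probes used and 10 of the 20653 named genes on the arrays. The cells were MIN6, a mouse insulinoma line of a transgenic C57Bl/6 mouse at passages 15 to 20. One culture had received the lentivirus pLVX-IRES-ZsGreen carrying mouse FTO, and the other the same vector without FTO. Both therefore carried the ZsGreen vector, and green fluorescence was checked at 48 h after transduction. Whether transduced cells were sorted is not given in the sources used here. There was 1 array per condition, so the differences below could not be set against replicates, and no test was run. The file headers of both arrays give 1 scan date and 1 scan identifier but 2 different barcodes. What the barcodes stand for was not determined, and barcode and condition cannot be told apart.

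In beta cells the pyruvate made from glucose is passed to the mitochondria, and its oxidation couples glucose to insulin release. Lactate dehydrogenase A and the monocarboxylate transporter MCT1 would divert pyruvate to lactate or let in pyruvate and lactate from the blood, and hexokinase 1 would phosphorylate glucose at low glucose levels. Primary beta cells keep all of these low. REST silences neuronal genes in most cells, and beta cells, which lack it, use many of these genes for secretion. MIN6 is a tumor line, in which this silencing need not hold.

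Fto was checked first. Its single probe (NM_011936) read 7301 on the FTO-labelled array and 5179 on the control-labelled array. Quantile normalization left 0.06 between them on the log2 scale, less than the spot error of 0.20, so overexpression was not visible at this probe. Where the probe lies relative to the transgene was not determined here, and a probe outside it would check nothing. Directions below rest on the labels.

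The label MIN6 was set beside markers. All 14 beta cell markers were well above background on each array. Signals before normalization between arrays were 276722 on the FTO-labelled array and 320363 on the control-labelled array for Ins2. A signal is called well above background where the scanner software flagged it so. In total 82.0% of the probes had this flag on the FTO-labelled array and 84.9% on the control-labelled array. The lowest signal of such a probe was 13.1 and 10.1. Of the other cell types, 7 of 8 mesenchymal, 3 of 5 endothelial, 4 of 4 probed immune, 5 of 5 acinar and 2 of 4 ductal markers had such a signal on each array. So did 85.9% of all named genes, so the flag does not tell cell types apart. Median signals of tested markers on the FTO-labelled array were 79909 for beta cell and 1195 for ductal markers. They were 157 for mesenchymal, 135 for immune, 132 for endothelial and 69.9 for acinar markers. The median signal of all spots was 292 and 237, so the FTO-labelled array was brighter as a whole before normalization.

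Of the 10 genes, 9 gave a signal well above background on each array, against 85.9% of all named genes (89.6% on at least 1 array). The exception was Pdgfra. The 15 probes spread over nearly the whole range of the array. Signals of different probes depend on the probe as well as on the transcript, so the ranks below describe brightness and do not order the genes. Where a pair of values is given without labels, the FTO-labelled array comes first. A rank is given as a percentile among the 39417 probes of that array. The probe sequences were not used here, so cross-hybridization to related transcripts was not tested.

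**Figure D1:**
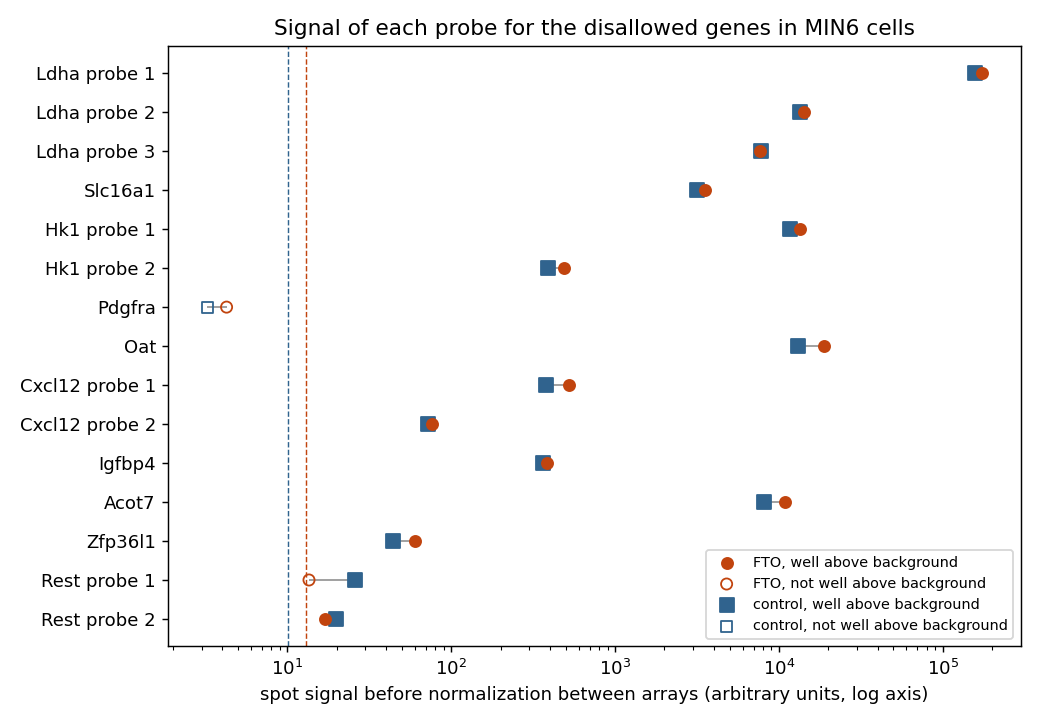
Signal of each of the 15 probes before normalization between arrays, on a log axis in arbitrary units, for the FTO-labelled array (circles) and the control-labelled array (squares). Open symbols are not well above background, and the dashed lines mark the lowest signal well above background on each array (13.1 and 10.1). The brightest Ldha probe reads 172868 and 158114 and both Pdgfra symbols lie left of the lines.

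The promoters of the brightest, an intermediate and the dimmest case are shown for context. RefSeq windows of 300 bases, from 250 before to 50 after a start site, were at hand for 9 of the 10 genes (11 windows, build GRCm38.p6, Rest not among them). Capitals mark CACGTG, an E-box read by factors such as MYC and ChREBP, and TGACGTCA, the cAMP response element. Both motifs read the same on both strands, and they do not overlap here. Ldha has a pair of windows. The first (chr7:46845554-46845853, + strand), printed here, holds CACGTG at -145 and -48 and TGACGTCA at -12 from the start. The Slc16a1 window (chr3:104638414-104638713, + strand) holds CACGTG at -200, and the Pdgfra window (chr5:75152001-75152300, + strand) holds neither. The second Ldha window (chr7:46846832-46847131, + strand) holds neither motif, and no window of another member does, so 2 of the 11 windows hold CACGTG and 1 holds TGACGTCA.
Ldha: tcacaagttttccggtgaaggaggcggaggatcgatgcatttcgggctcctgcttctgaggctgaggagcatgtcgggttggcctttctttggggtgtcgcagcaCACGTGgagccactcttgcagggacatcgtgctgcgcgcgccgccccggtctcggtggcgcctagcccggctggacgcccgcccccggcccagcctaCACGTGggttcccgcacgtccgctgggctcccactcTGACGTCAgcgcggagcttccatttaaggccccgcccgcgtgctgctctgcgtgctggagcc
Slc16a1: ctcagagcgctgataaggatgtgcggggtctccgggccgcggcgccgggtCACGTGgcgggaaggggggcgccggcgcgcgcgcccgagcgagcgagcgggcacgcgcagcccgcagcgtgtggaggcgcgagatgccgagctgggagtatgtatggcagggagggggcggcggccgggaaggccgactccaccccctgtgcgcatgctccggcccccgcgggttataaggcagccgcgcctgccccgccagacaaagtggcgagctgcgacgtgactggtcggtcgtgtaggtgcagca
Pdgfra: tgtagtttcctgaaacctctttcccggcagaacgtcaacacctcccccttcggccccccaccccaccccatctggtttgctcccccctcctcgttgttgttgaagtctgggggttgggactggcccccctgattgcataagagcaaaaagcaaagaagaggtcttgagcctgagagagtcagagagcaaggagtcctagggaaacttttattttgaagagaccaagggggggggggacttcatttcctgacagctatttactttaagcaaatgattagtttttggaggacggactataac
Of 32851 RefSeq windows, 7.15% hold CACGTG and 1.79% hold TGACGTCA. GC content is 67.3% in the printed Ldha window, 56.7% in the second Ldha window, 73.7% for Slc16a1 and 51.0% for Pdgfra, against a median of 52.7% over all windows. The matches are letters in the reference and not measured binding sites.

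The enzymes and the transporter that route glucose carbon come first. Ldha, lactate dehydrogenase A, had 3 probes of the same accession (NM_001136069). The brightest, probe 1, had signals of 172868 on the FTO-labelled array and 158114 on the control-labelled array, at percentiles 99.1 and 99.1. By this probe Ldha was near the top of the brightness range in both cultures. Probe 2 had signals of 14130 and 13424, and probe 3 had signals of 7653 and 7776. The probes of this 1 gene differed in brightness by up to 22.6-fold on the FTO-labelled array.

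After normalization probe 2 was lower on the FTO-labelled array by a log2 difference of -0.37 and probe 3 by -0.46. The spot error, combined from the error estimates of both spots, was 0.20 for each, and the spread between repeated spots of that brightness was 0.08 and 0.07. Both differences were larger than either error. They also lay outside the middle 90% of the other probes of like brightness, which ran from -0.20 to 0.22 around probe 2 and from -0.21 to 0.23 around probe 3. Probe 1 had a difference of -0.03, within its error of 0.20. The 3 probes therefore gave the same sign but not the same size. Scaling by the 75th percentile moved probe 1 to -0.30 and cyclic loess to -0.20, whereas probes 2 and 3 stayed between -0.45 and -0.34 under both. The 631 probes within 0.5 of probe 1 in brightness moved with it, to medians of -0.24 and -0.14.

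Slc16a1, which encodes the lactate and pyruvate transporter MCT1, had 1 probe (NM_009196) with signals of 3558 on the FTO-labelled array and 3156 on the control-labelled array. These are percentiles 71.7 and 73.3. Its log2 difference of -0.24 exceeded the spot error of 0.20 and the spread of repeated spots of 0.07, and lay just inside the middle 90% of like probes (-0.25 to 0.25). Hk1, hexokinase 1, had a pair of probes of accession NM_001146100. Probe 1 read 13537 and 11628, a log2 difference of -0.22 (spot error 0.20), just outside the middle 90% of like probes (-0.20 to 0.22). Probe 2, far dimmer at 488 and 391, had a difference of -0.02. Both Hk1 probes were thus lower on the FTO-labelled array, but only the difference of probe 1 exceeded its error.

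The remaining metabolic members did not move beyond the error. Oat, mitochondrial ornithine aminotransferase, read 18728 and 13124 (NM_016978), at percentiles 87.9 and 87.5, a log2 difference of 0.07 (spot error 0.20). Acot7, a cytosolic acyl-CoA thioesterase, had signals of 10920 and 8157 (NM_133348) and a difference of -0.01 with an error of 0.20. Both were bright in both cultures.

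Among the signalling members, Pdgfra, the receptor for platelet-derived growth factor that marks mesenchymal cells, was the only gene with no probe flagged as well above background. Its probe (NM_011058) is printed 10 times. On the FTO-labelled array the spots ran from 3.07 to 17.6 with a median of 3.60, and 1 of the 10 was well above background. On the control-labelled array they ran from 2.12 to 9.08 with a median of 2.76, and none was. No fold is given, since neither mean, 4.26 and 3.25, was flagged as well above background. Both means exceeded the 95th percentile of single negative control spots, 3.94 and 2.81, but the medians of 3.60 and 2.76 did not. Whether Pdgfra counts as detected thus depends on the limit and on the use of mean or median.

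Cxcl12, a chemokine, had a probe for each of 2 accessions. Probe 1 (NM_021704) read 521 and 378, a log2 difference of 0.12 (spot error 0.20). Probe 2 (NM_001012477) had signals of 76.8 and 71.8 and a difference of -0.07 with an error of 0.22. Neither differed beyond its error, and the signs were opposite. Probe 2 ran from -0.33 with 75th percentile scaling to 0.05 with normexp. Igfbp4, a secreted protein that binds insulin-like growth factors, had signals of 384 and 366 (NM_010517) and a difference of -0.26 with an error of 0.20. This exceeded the spot error but lay inside the middle 90% of like probes (-0.42 to 0.38).

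Cxcl12 and Igfbp4 are also made by mesenchymal cells. Of 8 mesenchymal markers 7 passed the background flag on each array, at a median signal of 157 on the FTO-labelled array and 139 on the control-labelled array. Pdgfrb did not clear the background in either culture. The summed normalized signal of the 7 tested markers was 1174 and 1113, and their median log2 difference was 0.04, from -0.34 for Col3a1 to 0.97 for Lum. Their part in the values of Cxcl12 and Igfbp4 was not tested. In bulk RNA fewer cells of a type and less RNA per cell cannot be told apart.

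The regulators were dim. Zfp36l1, an RNA-binding protein that promotes decay of AU-rich mRNAs, had signals of 60.1 and 44.3 (NM_007564), at percentiles 34.5 and 31.6. Its log2 difference of 0.32 exceeded the spot error of 0.23, but 75th percentile scaling reduced it to 0.01. It also lay inside the middle 90% of like probes (-0.73 to 0.62).

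Rest had a pair of probes of accession NM_011263. Probe 1 read 25.8 on the control-labelled array and 13.6 on the FTO-labelled array, where it did not clear the background. The measured value was 1.94-fold lower on the FTO-labelled array (log2 -0.96, spot error 0.40). With that signal not well above background, the size of the fold is not settled. Probe 2 cleared the background on each array, at 17.1 and 19.9, and had a difference of -0.25 with a spot error of 0.38. Both probes were lower on the FTO-labelled array, and only the difference of probe 1 exceeded its error. Like probes spread widely at this brightness, from -0.96 to 0.91 in their middle 90%. Normexp background correction brought probe 1 to -0.19 and probe 2 to -0.02. It adds an offset of 50, larger than these signals, which by itself shrinks the differences of dim probes.

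**Figure D2:**
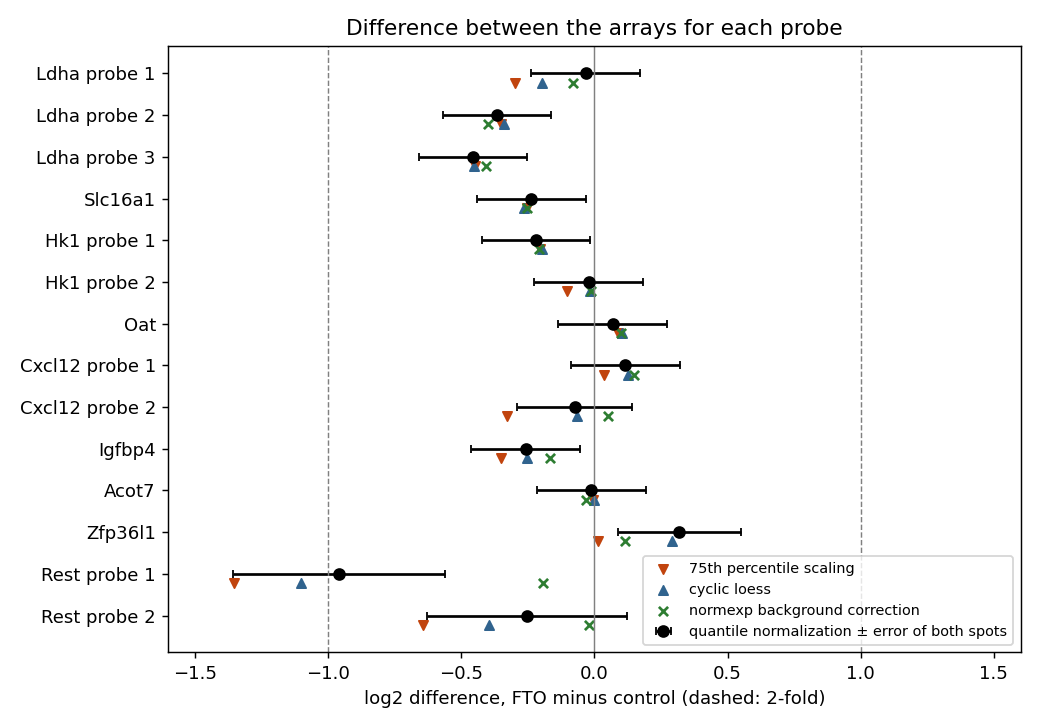
Log2 difference, FTO minus control, of the 14 probes that cleared the background on 1 array or both, with the combined error of both spots as bars and the values under 3 other ways of processing as colored symbols. Dashed lines mark 2-fold. The quantile values lie between -0.96 (Rest probe 1) and 0.32 (Zfp36l1), and the symbols spread most for Rest, Cxcl12 probe 2, Zfp36l1 and Ldha probe 1.

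Taking the brightest probe of each gene, none of the 9 tested members had a measured difference of more than 2-fold. For Rest the measured value was 1.94-fold, with the FTO signal not well above background, so the count does not settle its size. Among all 18513 named genes tested by the same rule, 2.68% did (497 genes, 201 higher and 296 lower on the FTO-labelled array). By direction these shares were 1.09% higher and 1.6% lower. Rest passed, as lower, with cyclic loess (-1.10) and with 75th percentile scaling (-1.35), where it was 1 of the 9 beside 3.95% of all named genes (0.675% higher and 3.27% lower). Of the 9 genes 6 had a value below 0, namely Ldha, Slc16a1, Hk1, Igfbp4, Acot7 and Rest, and 3 had a value above 0. Over all named genes 48.3% lay below 0, and 61.2% with 75th percentile scaling. The median of the members was -0.03 against 0.0064 over all named genes.

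By probe, 13 of the 15 were well above background on both arrays. Of these, 10 were lower and 3 were higher on the FTO-labelled array, and 6 differed by more than the spot error. Over the 23273 named probes with a signal on each array, 46.6% were lower and 27.8% differed by more than the spot error. Of the 13, only Ldha probes 2 and 3 and Hk1 probe 1 lay below the middle 90% of probes of like brightness, and none lay above it, where 4.83% and 4.95% of the named probes lay. The 15 probes come from 10 genes and are not independent.

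**Figure D3:**
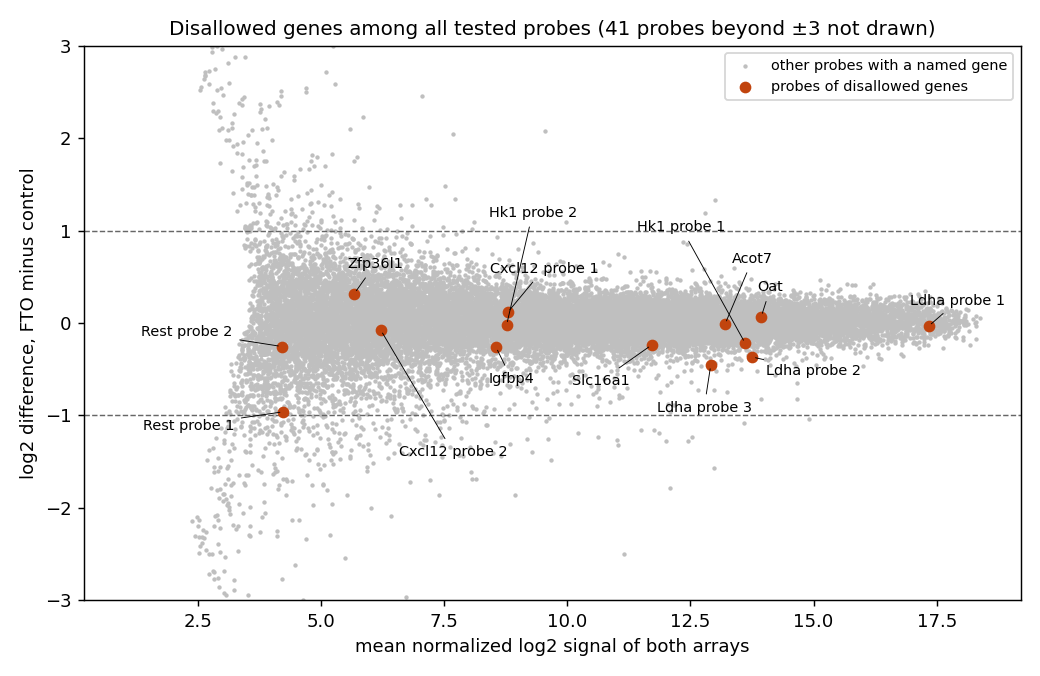
Mean normalized log2 signal of both arrays (x axis) and log2 difference, FTO minus control (y axis), of every tested probe with a named gene (gray) and of the probes of the disallowed genes (orange). Dashed lines mark 2-fold. Dim probes scatter more than bright ones, and Ldha probes 2 and 3, at -0.37 and -0.46, lie at the lower edge of the cloud.

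Relatives and partners of the members were examined with 7 lists, and 107 of their 115 genes were tested. Of these, 1 differed by more than 2-fold. This was Acot5, a peroxisomal acyl-CoA thioesterase, with signals of 426 and 172 at its brighter probe and a log2 difference of 1.02 with an error of 0.21. Its second probe had 129 and 99.7 and a difference of 0.18, so the probes disagreed. The brighter probe was at 0.88 with 75th percentile scaling and 0.83 with normexp, and Acot5 was not past 2-fold under these or with means over probes. The median over the paralogs was 0.00054, with 18 genes above 0 and 17 below.

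Paralogs of the glycolytic members gave values beside them. Ldhb read 4524 and 3014, a log2 difference of 0.16 with an error of 0.20, while both testis-type Ldhc probes were not well above background. For transporters, Slc16a3, which encodes the lactate exporter MCT4, had signals of 44985 and 37476 and a difference of -0.16. Its chaperone Bsg, basigin, had a difference of -0.13. Hk2, another hexokinase, was dim at 44.9 and 42.3 with a difference of -0.02. Each of these lay within its spot error, which ran from 0.20 to 0.25.

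Genes that carry pyruvate and reducing power into the mitochondria were bright and nearly level. All 14 were well above background, 13 had a value above 0, and the median log2 difference was 0.06. Over all named genes 85.9% had such a signal on both arrays, and 48.3% of those tested lay below 0. With 75th percentile scaling Mdh1 was at -0.10 and Mdh2 at -0.27, and the others stayed above 0. With quantile normalization none of the 14 passed 2-fold. There the 14 ranged from -0.0079 for Mdh2 to 0.18 for Pdha1, a subunit of pyruvate dehydrogenase, and none exceeded its spot error. Among the partners of Oat in ornithine, glutamate and proline metabolism 10 of 11 were tested, and they ranged from -0.13 for Pycrl to 0.19 for Arg1.

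Ligands and receptors around Pdgfra, Cxcl12 and Igfbp4 had a median log2 difference of -0.17 over 10 tested genes, 6 of them below 0. Igf2, a growth factor that insulin-like growth factor binding proteins hold, was lowest at -0.60, with signals of 480 and 572 and an error of 0.20. Like probes ran from -0.36 to 0.35. Pdgfd was highest at 0.33 with an error of 0.26. The CXCL12 receptor Cxcr4 had a difference of 0.32 with an error of 0.21, and the other receptor, Ackr3, was not well above background.

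REST acts with corepressors, and all 11 listed partners were well above background, from -0.14 for Rcor2 to 0.23 for Hdac2. The 16 target genes of REST that neurons and beta cells share were also all well above background on both arrays. The share over all named genes was 85.9%. Chga, which encodes the granule protein chromogranin A, had signals of 273283 and 267310, at percentile 99.9 on both. The median log2 difference of the 16 target genes was -0.0015, with 8 genes above 0 and 8 below. Stx1a, a syntaxin of the exocytosis machinery, was lowest at -0.37 and Stmn2, a neuronal stathmin, highest at 0.26.

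A further 13 genes known for low expression in beta cells were listed, and 11 were tested. Their median log2 difference was 0.10, 6 were above 0 and none passed 2-fold. Yap1, a coactivator of Hippo signalling, was highest at 0.59 but dim, with signals of 27.7 and 17.7 and an error of 0.33, inside the range of like probes (-0.90 to 0.83). Maf, a transcription factor, was brighter, at 8588 and 5019, with a difference of 0.35 (error 0.20) outside the range of its own like probes (-0.22 to 0.24), and is named after its values were seen. Arhgdib was lowest at -0.17. Smad3, a transducer of TGF-beta signals, had a bright probe at 1093 and 764 with a difference of 0.14. Its dim probe, at 32.6 on the FTO-labelled array and not well above background on the control-labelled array, was at least 3.19-fold higher, so its probes disagreed. Itih5 and Mgst1 had no probe well above background.

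**Figure D4:**
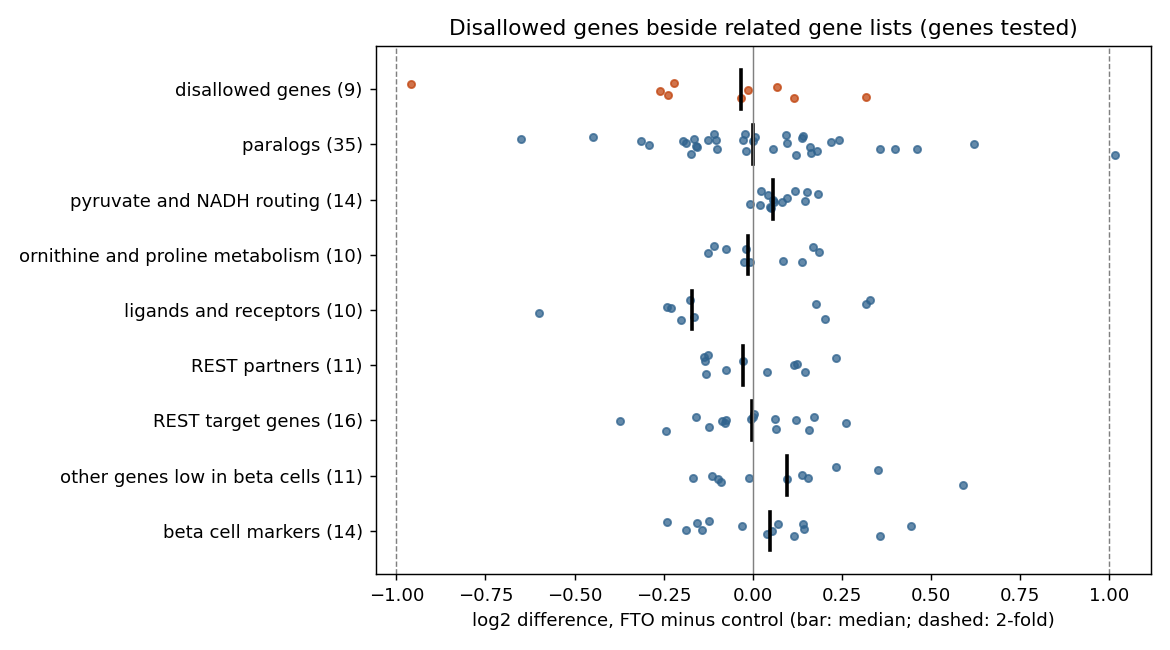
Log2 difference, FTO minus control, of the brightest probe of each tested gene in the disallowed list (orange) and in 7 related lists and the beta cell markers (blue), with the number of genes tested in brackets and the median as a black bar. Dashed lines mark 2-fold. The medians lie between -0.17 (ligands and receptors) and 0.10 (other genes low in beta cells), with Acot5 at 1.02 beyond the line.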

How the data were processed

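RNA of 2 cultures was hybridized to one-color Agilent mouse arrays, 1 per condition. The file headers give the same scan date and scan identifier but different barcodes. The deposited spot tables give each spot's intensity, from which the authors' Feature Extraction 11.0.1.1 had removed background and surface trends, without normalization between arrays. The authors also deposited log2 values, which the methods describe as quantile normalized, used here as an alternative. Here control spots and outlier spots (148 and 141) were left out, log2 intensities were averaged over the spots of a probe, and quantile normalization used limma 3.58.1 (R 4.3.3), with Python 3.11.15 and pandas 2.3.3 for the rest. A repeated probe was well above background where at least 50% of its spots were. A probe was tested where well above background on at least 1 array, a gene was represented by its brightest tested probe, and more than 2-fold was called. The normalization and the 2-fold rule were checked on simulated arrays, with noise below the spot error and only for brighter probes. The dim probes of Zfp36l1, Rest and Pdgfra lay outside that check, and the choice of the brightest probe was not simulated. Probes were named through accessions in the annotation of GRCm38.p6 (27224 of 39417), and gene coordinates are not given because the array design lists an older build. Spot errors come from the scanner software, the repeat spread from the 399 probes printed 10 times, and like probes are those within 0.5 in mean log2 signal. Members and lists were chosen with earlier results of these data known. Every member probe was named, with paralogs, direct partners, list extremes and genes past 2-fold. The number of arrays limits the precision. The mean raw intensity was not in the spot tables, so normexp used the median, with an offset of 50 that shrinks differences of dim probes. Pc was looked up as Pcx, and Pycr1 and Cd68 have no named probe. The values of 1 listed paralog are not reported here.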

Additional observations from a re-analysis of the deposited data

Results flagged for a closer look

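In the authors' deposited log2 table, which the comparisons above use only as an alternative, Pdgfra has a value of 4.13 on the FTO-labelled array and 2.38 on the control-labelled array. This is a log2 difference of 1.75. The means over the spots, 4.26 and 3.25, were not flagged as well above background on either array. The deposited FTO value differs by -0.000369 on the log2 scale from that of the brightest of the 10 spots, whose signal was 17.6. No other Pdgfra spot on either array was well above background, and the same spot read 9.08 on the control-labelled array. The deposited control value differs by -0.786 from that of this spot. Interpolated on the scale of the deposited values, the brightest spots lie at 4.13 and 3.17. The means over the spots lie at 2.32 and 2.32. The deposited difference thus sets a value at 1 spot against a value near the mean over the spots.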

How the results depend on the processing

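The count of members past 2-fold was 0 and became 1 (Rest) with 75th percentile scaling and 1 (Rest) with cyclic loess, and stayed 0 under the other 7 alternatives. The cause of this change was not tested. The deposited values were counted with the background filter used here, which leaves out Pdgfra, at a log2 difference of 1.75 in those values. The count of related genes past 2-fold was 1 and became 0 with normexp and 2 with no filter on background, which added Itih5, a gene not well above background. It was 1 elsewhere, but the gene was Slc16a5 (lower) with the scaling and Smad3 with means over probes, in place of Acot5. The median of the members lay between -0.21 and -0.02 in all settings. Scaling by the 75th percentile turned the calls over all named genes from 201 higher and 296 lower to 125 and 606. Of 70 values of single probes under 5 alternatives, 65 moved by less than their spot error, 5 by more, and none that exceeded its error changed sign. Of the members' probes, only Pdgfra lay in part in the area of the FTO-labelled array where repeated spots lost signal (rows 229 to 456, columns 1 to 34), with 1 of its 10 spots. Leaving that area out reduced the related genes tested from 107 to 94. With a limit at the 95th percentile of negative controls, 10 members counted as above background in place of 9. The added member was Pdgfra, which passed by the mean of its spots and not by their median. No paired analysis was possible because there is 1 array per condition, and for the same reason no array could be left out.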
